A study of Mus musculus with 9 samples.

Results

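The libraries of valemetostat-treated cells were set directly against those of tazemetostat-treated cells, gene by gene. These are 6 of the 9 libraries of the study, 3 per compound, chosen by their treatment labels, and 12580 of 45361 gene identifiers had enough counts to be tested. All groups are CH12F3 cells, a mouse B-lymphoma line used to study antibody class switching, with a knockout of the gene for DNA ligase 4. All were stimulated for 24 h with IL-4, TGF-β and an antibody to CD40. The tazemetostat group received tazemetostat, the valemetostat group received valemetostat, and the 3 libraries labelled DMSO serve here only as the reference level. The sources used here give neither the dose nor the time of inhibitor exposure, so a difference between the compounds and a difference in effective dose cannot be told apart. The labels do not say whether the libraries of a group came from separate cultures or whether the knockout line is a single clone, so the p-values reflect library-to-library spread that may be purely technical.

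Polycomb repressive complex 2 (PRC2) places methyl groups on lysine 27 of histone H3 through its catalytic subunit EZH2 or the related EZH1, and genes that carry the mark are kept silent. Tazemetostat is a selective EZH2 inhibitor, while valemetostat inhibits both EZH1 and EZH2. Both molecules carry a dimethylpyridone joined through an amide. Tazemetostat has a biphenyl core with a morpholine, and valemetostat has a chlorinated benzodioxole with a dimethylamino-cyclohexyl group. The comparison asks which transcripts differ between cells given one compound and cells given the other.

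Library totals ran from 34080504 to 46675110 counts. Values below are CPM, each gene's counts relative to the size of its library after TMM scaling, and 3 counts correspond to 0.0643 to 0.088 CPM. Lig4, the gene named in the genotype label, lay between 0.489 and 1.38 CPM in all 9 libraries, and no unmodified cells were compared here. B cell markers summed to 3463 to 3483 CPM with tazemetostat and 3547 to 3715 CPM with valemetostat, and none of the 10 was at 0. T and NK cell markers summed to 279 to 292 and 274 to 287 CPM, with Trbc1, Trbc2, Cd2 and Ncr1 of 27 at 0 counts throughout. Tcf7, Cd28 and Lck held the most counts of the 27 (17580, 17555 and 15730 over the 9 libraries). Myeloid markers summed to 194 to 204 and 191 to 210 CPM, with Lyz1, Cd14, S100a8, S100a9 and Cebpa of 23 at 0. Cybb, Fcer1g and Csf1r held the most counts of the 23 (38097, 11222 and 8411 over the 9 libraries). Stromal, endothelial and epithelial markers summed to 34 to 40.2 and 37.6 to 47.6 CPM (3 of 15 at 0), and germline markers to 2.82 to 4.39 and 3.16 to 3.39 CPM (5 of 16 at 0). Erythroid and megakaryocyte markers summed to 878 to 885 CPM with tazemetostat and to 784 to 862 CPM with valemetostat (2 of 14 at 0), nearly all of it Tfrc, the transferrin receptor that dividing cells carry, which was not called (log2 difference -0.08, edgeR adjusted p = 0.663). In bulk RNA, a change in the number of cells of a type and a change in RNA per cell cannot be told apart.

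Few transcripts differed between the compounds. In edgeR's quasi-likelihood test, 40 of 12580 genes passed a Benjamini-Hochberg adjusted p of 0.05 (0.318% of tested genes). Of these, 8 were higher with valemetostat (0.0636%) and 32 were lower (0.254%). Most of the differences were small, since 29 of the 40 were under 1.5-fold and 4 reached 2-fold (Gm14440, Ptp4a1, Cyp1a1 and Nr4a1). For 39 of the 40 the 3 valemetostat libraries lay entirely on one side of the 3 tazemetostat libraries. Over all tested genes, 7.12% had every valemetostat library below every tazemetostat library and 6.97% had every one above. Against DMSO, the same fit called 4794 genes with tazemetostat (38.1%) and 4927 with valemetostat (39.2%), and these comparisons share the DMSO libraries. At an unadjusted p under 0.05, 999 genes (7.94%) differed between the inhibitors. The 95% interval of the difference lay within 1.5-fold in either direction for 9842 genes (78.2%) and within 2-fold for 10792 (85.8%).

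**Figure D1:**
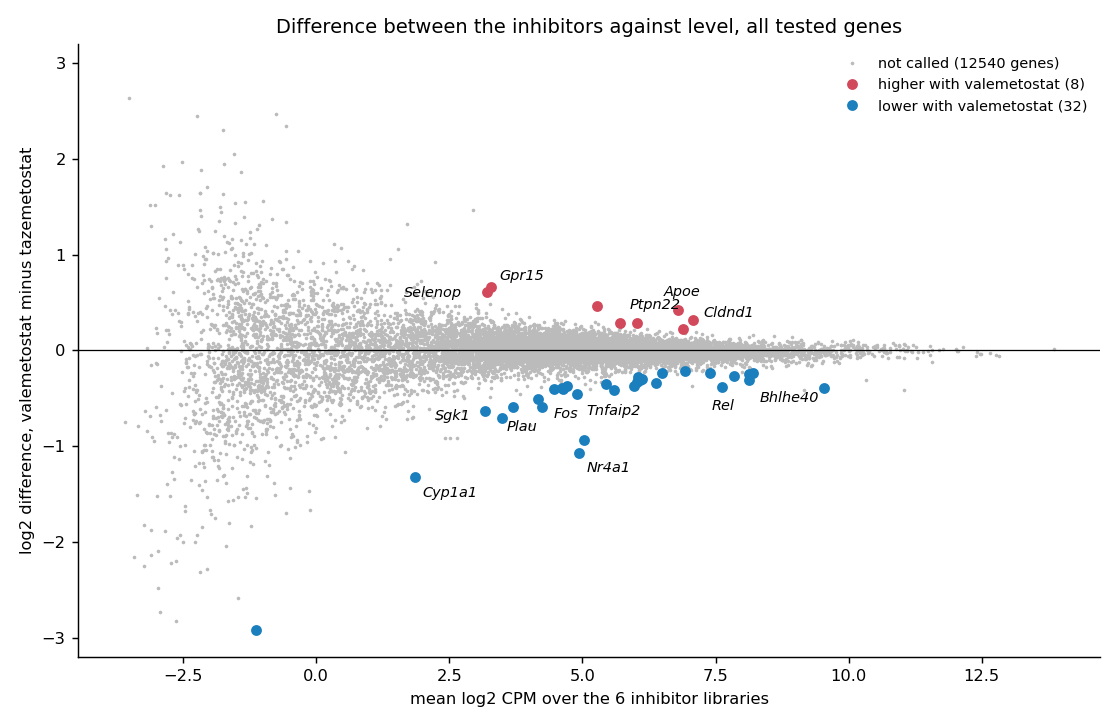
Log2 difference between valemetostat and tazemetostat (vertical axis) against mean log2 CPM of the 6 inhibitor libraries (horizontal axis) for the tested genes; red points are the 8 genes called higher with valemetostat, blue points those called lower. The axis ends at 3.2 in either direction and leaves out 7 genes, of which 1 (Gm14440) was called. Of the 40 called genes 29 lie under 1.5-fold, and among those with a printed symbol Cyp1a1 lies farthest from 0, at -1.33.

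Of the genes of the early transcriptional response to stimulation, Nr4a1, Fos and Jun were lower with valemetostat. This class holds the AP-1 subunits Fos and Jun and the nuclear receptor Nr4a1, which cells induce within minutes of a signal and which then act on later genes. Nr4a1, an orphan nuclear receptor induced by antigen receptor signalling, stood at 48.8, 47.7 and 38.0 CPM with tazemetostat and at 21.7, 18.4 and 24.1 CPM with valemetostat. The groups did not overlap, and the DMSO libraries at 20.7, 28.7 and 22.4 CPM lay near the valemetostat level. The log2 difference between the inhibitors was -1.07 ± 0.14 (SE, edgeR adjusted p = 0.0112). Fos was at 22.1, 22.9 and 25.2 CPM with tazemetostat and at 14.3, 18.2 and 14.1 CPM with valemetostat. Every valemetostat library was again below every tazemetostat library, and DMSO libraries stood at 13, 14.6 and 13.9 CPM. The difference of Fos was -0.59 ± 0.10 (edgeR adjusted p = 0.00448). Jun was at 98.6, 91.7 and 92.2 CPM with tazemetostat, at 64.8, 76.0 and 81.7 CPM with valemetostat and at 56.4, 55.7 and 54.4 CPM in DMSO. Its valemetostat libraries therefore lay between the other groups without overlap, at -0.35 ± 0.06 from tazemetostat (edgeR adjusted p = 0.0131). Without valemetostat library 1, the edgeR adjusted p was 0.105 for Nr4a1, 0.0559 for Fos and 0.13 for Jun. Jun also lost its call without tazemetostat library 1 (0.147) or valemetostat library 2 (0.0705).

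The RefSeq promoter sequences of Nr4a1 and Fos are shown because promoters of early response genes are known for cAMP-response elements. Those of Rel and Cyp1a1, described further on, are shown for their kappa B and xenobiotic-response motifs. Each line gives the 250 bases before the annotated start, 5′ to 3′ on the gene's strand (build GRCm38.p6): Nr4a1 at chr15:101266596-101266845 (plus strand), Fos at chr12:85473640-85473889 (plus), Rel at chr11:23770970-23771219 (minus) and Cyp1a1 at chr9:57697363-57697612 (plus). Capitals mark TGACG on either strand in Nr4a1 and Fos, the kappa B consensus in Rel (2 overlapping matches) and GCGTG on either strand in Cyp1a1.
Nr4a1: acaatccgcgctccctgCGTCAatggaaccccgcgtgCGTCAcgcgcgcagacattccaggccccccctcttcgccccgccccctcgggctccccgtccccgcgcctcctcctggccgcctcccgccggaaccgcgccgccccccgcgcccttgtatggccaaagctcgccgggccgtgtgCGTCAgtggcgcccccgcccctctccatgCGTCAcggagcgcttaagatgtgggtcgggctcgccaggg
Fos: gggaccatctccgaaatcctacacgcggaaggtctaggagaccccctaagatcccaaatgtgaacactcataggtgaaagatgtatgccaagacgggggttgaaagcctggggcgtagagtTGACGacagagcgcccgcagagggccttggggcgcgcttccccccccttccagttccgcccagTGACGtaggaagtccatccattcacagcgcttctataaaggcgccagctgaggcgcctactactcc
Rel: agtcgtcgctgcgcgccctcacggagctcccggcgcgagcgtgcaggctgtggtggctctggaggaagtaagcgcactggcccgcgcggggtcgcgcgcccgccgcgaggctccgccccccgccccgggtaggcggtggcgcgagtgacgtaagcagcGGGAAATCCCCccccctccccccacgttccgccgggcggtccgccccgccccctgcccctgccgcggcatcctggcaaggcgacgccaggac
Cyp1a1: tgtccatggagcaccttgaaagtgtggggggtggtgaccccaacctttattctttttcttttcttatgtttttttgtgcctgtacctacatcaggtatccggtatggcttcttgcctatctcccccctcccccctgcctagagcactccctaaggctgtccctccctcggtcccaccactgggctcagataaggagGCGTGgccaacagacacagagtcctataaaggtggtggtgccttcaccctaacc
TGACG, the core of the cAMP-response element, occurred 4 times in the Nr4a1 window and 2 times in that of Fos, on either strand. The window of Jun, which is not shown, held 0 matches, as did those of Klf6 and Gadd45b, described further on. It was found in 17.8% of the 32851 promoters of the table and in 30.8% of the 9529 tested genes with a promoter there. Among called genes with a promoter it was in 8 of 22 lower genes (36.4%) and 2 of 7 higher genes (28.6%). The AP-1 motif TGANTCA was in 0 of the 22 lower and 1 of the 7 higher genes, and in 5.28% of tested genes. The kappa B consensus was in 4 of 22 and 0 of 7 (5.69% of tested genes), GCGTG in 15 of 22 and 2 of 7 (49.7%), and the serum response CArG box in 1 of 22 and 0 of 7 (1.31%). Motifs were searched on both strands and may overlap each other, and a match is a description of the letters only.

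Of 19 tested members of the list of AP-1, EGR and NR4A genes, 3 were called lower and 0 higher, beside 0.254% of all tested genes called lower. Every valemetostat library lay below every tazemetostat library in 7 of them and above in 1, beside 7.12% and 6.97% of all. The member above was Nab1, described further on, with the list's highest difference (0.30). Of the 19, 10 had an unadjusted edgeR p under 0.05, and 5 were called by DESeq2 and 5 by edgeR with an offset for transcript length and GC content in each library. The median log2 difference of the list was -0.16, against 0.00 over all tested genes. Nr4a3, a relative of Nr4a1, was at 8.22, 7.78 and 7.47 CPM with tazemetostat and at 4.13, 3.28 and 4.98 CPM with valemetostat. Those groups did not overlap, but the difference of -0.92 ± 0.21 missed the threshold (edgeR adjusted p = 0.0802); it passed with DESeq2 (adjusted p = 0.0128) and in edgeR with that offset (0.048). Fosb, another AP-1 subunit, overlapped, at 6.06, 7.66 and 14.9 CPM against 2.86, 9.30 and 3 CPM. Junb and Jund, AP-1 subunits as well, were at 0.09 (95% interval -0.02 to 0.20) and 0.05 (-0.08 to 0.18) and were not called. Outside the list, Bhlhe40, a basic helix-loop-helix repressor induced by activation, was at 311, 318 and 303 CPM with tazemetostat and at 253, 240 and 258 CPM with valemetostat. The difference of -0.31 ± 0.05 had an edgeR adjusted p of 0.00186, and DMSO libraries were lower than both, at 193, 217 and 197 CPM. Klf6, a zinc-finger factor of the same early class, was at -0.39 ± 0.08 (edgeR adjusted p = 0.0145), and was not called without tazemetostat library 1 or valemetostat library 1 or 2 (0.203, 0.0891 and 0.157).

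**Figure D2:**
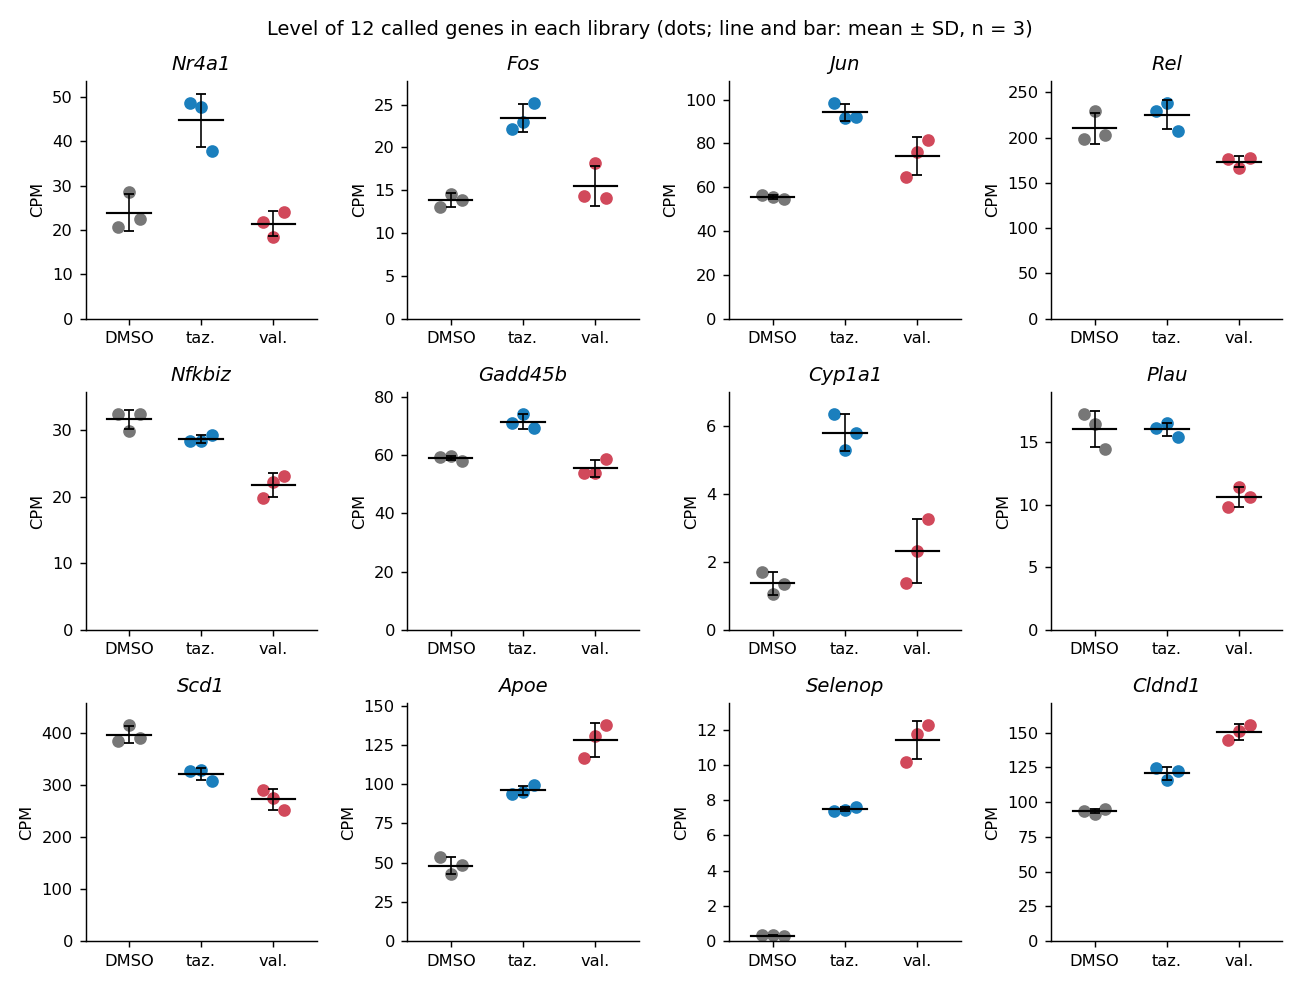
CPM (vertical axes, from 0) of 12 called genes in each DMSO, tazemetostat (taz.) and valemetostat (val.) library; dots are libraries, and lines with bars are means ± SD (n = 3). In all 12 panels the 3 valemetostat dots lie wholly below or wholly above the 3 tazemetostat dots, for example Plau at 9.80 to 11.4 against 15.4 to 16.5 CPM.

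NF-κB and stress signalling genes showed the same direction for a few members. Rel encodes the c-Rel subunit of NF-κB, which CD40 signalling engages in B cells. It was at 230, 239 and 207 CPM with tazemetostat and at 176, 166 and 178 CPM with valemetostat, with DMSO at 199, 230 and 203 CPM. The valemetostat libraries were thus below both other groups, at -0.38 ± 0.06 from tazemetostat (edgeR adjusted p = 0.00186). Nfkbiz, which encodes the nuclear NF-κB regulator IκBζ, was at 28.3, 28.3 and 29.3 CPM against 19.8, 22.3 and 23.2 CPM, with DMSO at 32.5, 29.9 and 32.4 CPM. The valemetostat libraries were again the lowest, and those of tazemetostat lay just under DMSO (-0.40 ± 0.08, edgeR adjusted p = 0.0131). Of 22 tested NF-κB subunits and inhibitors, Rel and Nfkbiz were called lower and 0 higher, beside 0.254% of all tested genes called lower. The list's median was -0.03. Nfkb1 and Relb, other subunits, were at -0.01 (95% interval -0.09 to 0.07) and -0.03 (-0.14 to 0.08), and Nfkbia, the inhibitor IκBα, at 0.04 (-0.05 to 0.13). Nfkbiz lost its call without tazemetostat library 1 or 2 or without valemetostat library 1 or 2 (edgeR adjusted p of 0.0781, 0.055, 0.141 and 0.0705).

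Gadd45b, a stress gene that NF-κB can induce, was at 71.0, 74.3 and 69.4 CPM with tazemetostat and at 53.9, 53.8 and 58.7 CPM with valemetostat. DMSO libraries at 59.3, 59.6 and 58.1 CPM lay close to the valemetostat level, and the inhibitors differed by -0.37 ± 0.06 (edgeR adjusted p = 0.00186). Tnfaip2, a TNF-inducible gene, had the same order, at 33.9, 37.7 and 33.7 CPM, then 25.7, 24.0 and 27.3 CPM, with DMSO at 26.5, 24.2 and 25.5 CPM (-0.45 ± 0.07, edgeR adjusted p = 0.00448). Plau, the secreted protease urokinase, was at 16.1, 16.5 and 15.4 CPM with tazemetostat and at 9.80, 11.4 and 10.6 CPM with valemetostat. Its DMSO libraries, at 17.2, 16.4 and 14.4 CPM, overlapped tazemetostat instead (-0.60 ± 0.10 between the inhibitors, edgeR adjusted p = 0.00501). Sgk1, a serum-inducible kinase, was at 11.3, 10.9 and 11.3 CPM against 6.43, 7.56 and 7.69 CPM. Both groups exceeded DMSO at 1.94, 1.91 and 1.79 CPM, and they differed from each other by -0.63 ± 0.13 (edgeR adjusted p = 0.0244). Rgs1, a regulator of G-protein signalling that limits B cell migration, differed by -0.41 ± 0.07, and Plk2, a stress-responsive polo-like kinase and a member of the p53 target list, by -0.51 ± 0.10. Runx2, a RUNX transcription factor, differed by -0.40 ± 0.09, having log2 differences from DMSO of 1.21 with tazemetostat and 0.81 with valemetostat. Tnfaip2 was not called without valemetostat library 2 (edgeR adjusted p = 0.07), nor Plau without valemetostat library 1 (0.0559). Rgs1 lost its call without tazemetostat library 1 or valemetostat library 2 (0.114 and 0.0954), and Sgk1 and Plk2 each lost theirs without library 1 or 2 of either group (0.0582 to 0.23). Runx2 was called in 1 of the 6 fits, that without tazemetostat library 3 (0.0902 to 0.304 in the others).

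Survival genes of the BCL2 family gave 2 calls among 15 tested members, both lower, beside 0.254% of all tested genes called lower. Bcl2l1, which encodes the anti-apoptotic BCL-XL, was at 271, 242 and 244 CPM with tazemetostat and at 201, 205 and 221 CPM with valemetostat, without overlap (-0.27 ± 0.05, edgeR adjusted p = 0.00759). Pmaip1, which encodes the pro-apoptotic NOXA, was at 96.3, 96.2 and 99.1 CPM against 82.3, 80.5 and 85.1 CPM (-0.23 ± 0.05, edgeR adjusted p = 0.0275). So 1 survival gene and 1 death gene were both lower. Bcl2l1 was not called without tazemetostat library 1 or valemetostat library 1 or 2 (edgeR adjusted p of 0.147, 0.105 and 0.0856), and Pmaip1 was called in 1 of the 6 fits without 1 inhibitor library, that without valemetostat library 3 (0.052 to 0.26 in the others). Of 27 p53 targets, Plk2 and Pmaip1 were called lower, beside 0.254% of all tested genes, and the list's median was 0.01. Pmaip1 is thus counted in both lists. The remaining lower genes included Dusp14, a phosphatase of MAP kinases (-0.37), Braf, the MAP kinase kinase kinase (-0.27), and Cytip, a regulator of leukocyte adhesion (-0.33). Spsb1, an adaptor of a ubiquitin ligase (-0.29), Ubald2 (-0.24) and Plscr1, an interferon-inducible scramblase (-0.22), completed them. Each of these 6 was called in 1 or 2 of the 6 fits without 1 inhibitor library.

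Among called genes with a mean of at least 1 log2 CPM, Cyp1a1 had the largest difference. It encodes a cytochrome P450 that oxidises aromatic compounds and is the classical target of the aryl hydrocarbon receptor, a ligand-activated factor that binds the GCGTG core. It was at 6.37, 5.29 and 5.79 CPM with tazemetostat and at 1.38, 2.32 and 3.28 CPM with valemetostat. DMSO libraries were at 1.71, 1.04 and 1.35 CPM, so the tazemetostat libraries stood apart from both other groups. Valemetostat was itself called above DMSO, by a log2 difference of 0.75 (edgeR adjusted p = 0.026). The difference between the inhibitors was -1.33 ± 0.24 (edgeR adjusted p = 0.0112). It was not called without tazemetostat library 1 (edgeR adjusted p = 0.103) or valemetostat library 1 (0.0891) or 2 (0.0856). Of 8 tested aryl hydrocarbon receptor targets, Cyp1a1 was called lower and 0 were higher, beside 0.254% of all tested genes called lower. The list's median was -0.10, with 6 differences negative and 2 positive, up to 0.56. Every valemetostat library lay below every tazemetostat library in 3 of the 8 and above in 1, beside 7.12% and 6.97% of all tested genes. Ahrr, the repressor of the receptor, was at 6.98, 7.36 and 6.72 CPM against 5.21, 4.43 and 5.5 CPM, without overlap but also without a call (-0.48 ± 0.15, edgeR adjusted p = 0.277). Tiparp, another target, was at -0.17 (95% interval -0.31 to -0.04).

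Most cholesterol synthesis genes had small negative differences, and how many passed the test depended on the fit. SREBP2 is the factor that switches these genes on when cells lack sterols. Of 25 tested members of the cholesterol and SREBP2 list, 1 was called lower and 0 higher, beside 0.254% of all tested genes called lower. An unadjusted edgeR p under 0.05 was found for 16 of them, beside 7.94% of all. DESeq2 called 4 of the 25 and edgeR with the offset 5. Of the 25, 15 had every valemetostat library below every tazemetostat library and 0 had every one above, against 7.12% and 6.97% of all tested genes. The difference was negative in 20 of 25, the median was -0.13, and every member's 95% interval lay within 1.5-fold. Over the alternative settings the list's median ran from -0.15 to -0.09. The list's medians against DMSO were -0.07 with tazemetostat and -0.19 with valemetostat.

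Single members of that list showed how small the differences were. Hsd17b7 was at 44.4, 47.7 and 42.6 CPM against 38.6, 36.5 and 36.2 CPM (-0.27 ± 0.06, edgeR adjusted p = 0.0679). Sc5d was at 91.2, 96.5 and 94.2 CPM against 84.5, 81.4 and 76.1 CPM (-0.22 ± 0.05, edgeR adjusted p = 0.0704). Both are enzymes of sterol synthesis whose libraries did not overlap. Hmgcs1, an early enzyme of the pathway, was at 394, 420 and 397 CPM against 375, 361 and 327 CPM (-0.19 ± 0.05, edgeR adjusted p = 0.125). These 3 genes were not called by edgeR without an offset, but DESeq2 called them (adjusted p of 0.0128 for Hsd17b7, 0.0123 for Sc5d and 0.0296 for Hmgcs1), as did edgeR with a length and GC offset (0.0302, 0.0246 and 0.0136). Valemetostat library 3 was the lowest of the 3 for Hsd17b7, Sc5d and Hmgcs1, and without it the list's median was -0.09. Within groups, the list's mean log2 CPM had an SD of 0.05. Of 14 fatty acid and SREBP1 genes, Scd1, the stearoyl-CoA desaturase, was called lower, beside 0.254% of all tested genes called lower. Scd1 was at 328, 329 and 309 CPM against 291, 276 and 252 CPM (-0.24 ± 0.05, edgeR adjusted p = 0.0268). Scd1 was not called without tazemetostat library 1 or 2 or valemetostat library 2 or 3 (edgeR adjusted p of 0.254, 0.226, 0.157 and 0.163).

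Apoe, a lipid-carrying apolipoprotein and a target of the sterol-sensing LXR receptors, was higher with valemetostat. It was at 94.0, 94.8 and 99.5 CPM with tazemetostat and at 117, 131 and 138 CPM with valemetostat, with DMSO lowest at 53.5, 42.4 and 48.4 CPM. The groups did not overlap, and the inhibitors differed by 0.42 ± 0.07 (edgeR adjusted p = 0.00759). Apoe lost the call without tazemetostat library 1 (edgeR adjusted p = 0.0781) or valemetostat library 2 (0.0756). It was the only called gene among 8 tested LXR targets, beside 0.0636% of all tested genes called higher. The list's median was 0.03. The LXR-regulated cholesterol exporters Abca1 and Abcg1 were both at 0.00, with 95% intervals of -0.29 to 0.30 and -0.13 to 0.14.

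The other 7 genes higher with valemetostat belonged to none of the gene lists. Cldnd1, a claudin-like membrane protein, was at 125, 116 and 122 CPM with tazemetostat and at 145, 151 and 156 CPM with valemetostat, with DMSO at 93.4, 91.8 and 94.7 CPM. The 3 groups formed 3 separate levels, and the inhibitors differed by 0.32 ± 0.05 (edgeR adjusted p = 0.00186). Selenop, the secreted carrier of selenium, was at 0.316, 0.319 and 0.280 CPM in DMSO, at 7.39, 7.45 and 7.61 CPM with tazemetostat and at 10.2, 11.8 and 12.3 CPM with valemetostat. It was thus far above DMSO with either compound and higher with valemetostat by 0.61 ± 0.13 (edgeR adjusted p = 0.034), but it was not called in any of the 6 fits without 1 inhibitor library (edgeR adjusted p of 0.0581 to 0.267). Gpr15, a chemoattractant receptor of lymphocytes, was at 9.22, 7.92 and 6.01 CPM against 12.7, 12.7 and 11.4 CPM (0.66 ± 0.14, edgeR adjusted p = 0.0366). Ptpn22, a phosphatase that restrains antigen receptor signalling, was at 60.1, 57.8 and 59.2 CPM against 72.6, 70.5 and 72.8 CPM (0.29 ± 0.06, edgeR adjusted p = 0.0244). Bcar3, an adaptor of integrin signalling, and Ints5, a subunit of the Integrator complex, were at 0.22 ± 0.05 and 0.29 ± 0.06. Gpr15 was called in 1 of the 6 such fits, that without tazemetostat library 1 (0.0635 to 0.275 in the others), and Ptpn22 in 1, that without tazemetostat library 3 (0.0791 to 0.164). Bcar3 and Ints5 were called in 2 each, those without library 3 of either group. The last was an identifier of Zc3h11a.

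Histone transcripts gave 2 calls among 26 tested genes, both lower, beside 0.254% of all tested genes called lower. H2aw was at 16.4, 13.3 and 13.4 CPM with tazemetostat, at 8.80, 7.22 and 10.3 CPM with valemetostat and at 9.95, 9.46 and 7.29 CPM in DMSO. The tazemetostat libraries stood above both other groups, and the inhibitors differed by -0.71 ± 0.14 (edgeR adjusted p = 0.0145). H2bc4 was at 50.4, 50.9 and 45.5 CPM against 38.2, 37.5 and 39.1 CPM (-0.35 ± 0.06, edgeR adjusted p = 0.0103). Of the 26, 6 had every valemetostat library below (7.12% of all tested genes) and 1 had every one above (6.97% of all), with a median of -0.18. H2aw was not called without tazemetostat library 1 or valemetostat library 1 or 2 (edgeR adjusted p of 0.203, 0.105 and 0.22), and H2bc4 without library 1 or 2 of either group (0.0621 to 0.103). The list's median was -0.06 without tazemetostat library 3 and also without valemetostat library 3. H2ac18 had the widest difference at 5.72, resting on 1 library at 1.71 CPM, and was not called (edgeR adjusted p = 0.485). Most histone messages lack a poly(A) tail, and these libraries were made from poly(A) RNA.

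Several called identifiers cannot be assigned to a single gene. Zc3h11a, a zinc-finger protein of mRNA export, has 2 identifiers in the table. ENSMUSG00000116275 was at 43.5, 45.0 and 47.5 CPM with tazemetostat and 25.9, 22.4 and 22.7 CPM with valemetostat (-0.94 ± 0.07, edgeR adjusted p = 9.94e-09), while ENSMUSG00000102976 was at 33.4, 36.3 and 29.1 CPM against 43.3, 42.1 and 51.2 CPM (0.47 ± 0.09, edgeR adjusted p = 0.0145). The pair moved in opposite directions, and with both summed the difference was -0.18 (edgeR adjusted p = 0.344). Ptp4a1 (ENSMUSG00000026064), a phosphatase gene, had 58, 12 and 86 counts with tazemetostat and 11, 3 and 5 with valemetostat. The groups overlapped, and a second identifier of the symbol held 4221 to 5415 counts with tazemetostat and 3787 to 4497 with valemetostat. Gm14440, of a zinc-finger family with many near-identical copies, had 202 counts over the tazemetostat libraries and 0 over those of valemetostat, at least 59.8-fold lower when 3 counts stand in for the valemetostat group's 0. Gm14440 and Ptp4a1 were each called in 1 of the 6 fits without 1 inhibitor library, and ENSMUSG00000102976 in 4. The mitochondrial pseudogenes Gm28661 and Gm13339 differed by -0.40 ± 0.07 and -0.31 ± 0.06, and Gm28437 and Gm10925, also nuclear copies of mitochondrial genes, were at -0.08 and -0.08 and not called. A further copy, Gm29216, was at 659, 717 and 598 CPM against 513, 464 and 509 CPM, without overlap and as far apart (-0.41 ± 0.12), but not called (edgeR adjusted p = 0.417). Gm28661 was not called without valemetostat library 1 or 2 (0.0578 and 0.0705), and Gm13339 was called in 1 of the 6 fits, that without tazemetostat library 3 (0.0781 to 0.363 in the others).

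No transcript of a PRC2 subunit was called between the compounds. Ezh2 was at 181, 181 and 171 CPM with tazemetostat and at 170, 162 and 166 CPM with valemetostat. The libraries did not overlap, but the difference of -0.10 (95% interval -0.19 to -0.01) was not called (edgeR adjusted p = 0.55). Ezh1, the paralogue that valemetostat also inhibits, was at 16.1, 17.8 and 17 CPM against 15.5, 18.9 and 17.2 CPM, with overlapping libraries and a difference of 0.01 (-0.17 to 0.20). The core subunits Eed and Suz12 were at 0.06 (-0.05 to 0.16) and 0.01 (-0.09 to 0.11). Of 13 tested PRC2 subunits, 0 were called by edgeR or DESeq2, beside 0.318% of all tested genes called by edgeR. At that share, neither these 13 genes nor the 23 PRC1 subunits below would often hold a call. An unadjusted edgeR p under 0.05 was found for 1 of the 13, beside 7.94% of all. The interval lay within 1.5-fold for 12, and the exception was Phf1, an accessory subunit, at about 1 CPM. Messenger RNA levels do not measure how far either enzyme was inhibited. Of 23 PRC1 subunits, 0 were called by edgeR (3 at an unadjusted p under 0.05, and by DESeq2 the 2 genes Rybp and Bcor, at -0.21 in edgeR with adjusted p of 0.0679 and 0.0992), and all 23 intervals lay within 1.5-fold; Bmi1 was at 0.01 (-0.10 to 0.13) and Pcgf5 at 0.03 (-0.18 to 0.23).

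Genes lower in DMSO than with either compound included some that were called between the compounds. Examples were Selenop, Sgk1, Gpr15, Runx2, Apoe, Cldnd1, Ptpn22, Bhlhe40, Jun, H2bc4 and Spsb1. The genes described next, also lower in DMSO, were not called by edgeR. Hdac9, a class IIa deacetylase, was at 0.0211, 0.029 and 0.112 CPM in DMSO, at 19.0, 21.5 and 17.8 CPM with tazemetostat and at 21.1, 19.9 and 24.7 CPM with valemetostat. The inhibitor groups overlapped, with a difference of 0.17 (95% interval -0.05 to 0.40, edgeR adjusted p = 0.738). Igf1, the insulin-like growth factor, was at 5.5, 5.59 and 6.24 CPM against 6.61, 5.91 and 6.25 CPM (0.12, interval -0.25 to 0.49), with DMSO at 0, 0 and 0.0561 CPM. Mctp1, a calcium-binding membrane protein, was at 27, 27.1 and 27.1 CPM against 25.6, 30.1 and 27.3 CPM (0.03, interval -0.16 to 0.22). Nab1, a corepressor of EGR factors, was at 21.8, 24.4 and 22.5 CPM against 28.3, 30.9 and 25.7 CPM. Its groups did not overlap, yet 0.30 (interval 0.07 to 0.54) was not called (edgeR adjusted p = 0.447). Bach2, a B cell repressor of plasma cell fate, was at 47.2, 48.6 and 45.9 CPM against 36.7, 39.4 and 41.5 CPM, also without overlap (-0.27 ± 0.07, edgeR adjusted p = 0.128, called by DESeq2 at 0.0489). Vim, Csn3 and Gbp2 were at 0.15 (-0.02 to 0.33), 0.09 (-0.27 to 0.45) and -0.01 (-0.24 to 0.22).

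**Figure D3:**
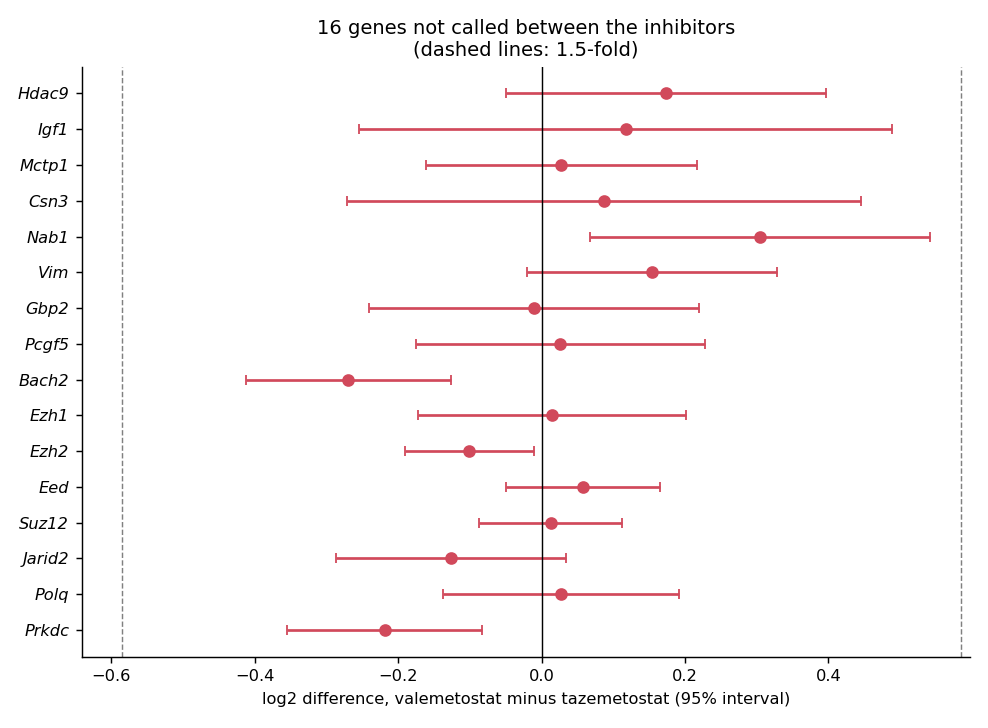
Log2 difference, valemetostat minus tazemetostat (points), with its 95% interval (bars) for 16 genes that were not called; dashed lines mark 1.5-fold. All 16 intervals lie inside the dashed lines, and those of Nab1, Bach2, Ezh2 and Prkdc leave out 0.

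Tested genes were also divided by their level in the DMSO libraries, which are not part of the contrast. Of 214 tested genes under 0.1 CPM in DMSO, 0 were called by edgeR and 0 by DESeq2, beside 0.318% of all called by edgeR. With a share that low, 0 calls among 214 genes do not set them apart. An unadjusted edgeR p under 0.05 was found for 4 of them, beside 7.94% of all. Every valemetostat library lay below every tazemetostat library in 7.94% of them and above in 5.61%, beside 7.12% and 6.97% of all. Their median difference was -0.03. Their quartiles were -0.42 and 0.34, with a median SE of 0.61, so differences of this size were not detectable gene by gene. These genes passed the count filter through the inhibitor libraries, which fixes the direction of their medians against DMSO (3.89 with tazemetostat and 3.97 with valemetostat) but not that between the inhibitors. Among 2267 genes at 100 CPM or more, 1 was called higher and 9 lower, beside 0.0636% and 0.254% of all tested genes. In this class 11.6% had every valemetostat library below and 4.32% every one above, beside 7.12% and 6.97% of all. Their median was -0.01.

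**Figure D4:**
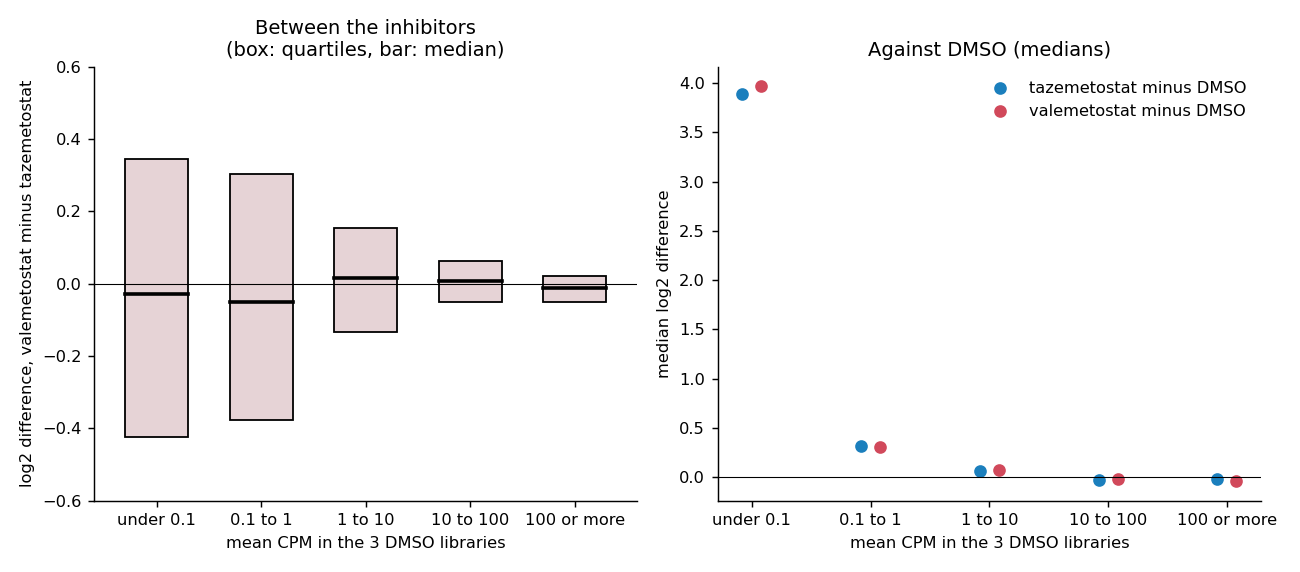
Left: log2 difference between the inhibitors (vertical axis; box, quartiles; bar, median) by mean CPM in the 3 DMSO libraries (horizontal axis). Right: medians of each inhibitor against DMSO in the same classes; the left medians stay between -0.05 and 0.02, while the right medians reach 3.89 and 3.97 in the lowest class.

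The switching and repair genes described here gave no calls. The IgA heavy chain gene Igha was at -0.06 (95% interval -0.15 to 0.04) and Ighm, the IgM heavy chain, at 0.07 (-0.03 to 0.16). Prkdc, the kinase DNA-PKcs of end joining, was at 46.2, 47.4 and 42.3 CPM against 37.3, 39.5 and 40.0 CPM (-0.22, interval -0.35 to -0.08, edgeR adjusted p = 0.248). Polq, the polymerase of alternative end joining, was at 0.03 (-0.14 to 0.19), and Trp53bp1, which protects broken ends, at 0.03 (-0.09 to 0.14). Of 10 classical end joining, 11 alternative end joining, 14 break-end protection and 22 homologous recombination genes tested, 0 were called by edgeR or DESeq2 in any list, and 1, 1, 0 and 2 had an unadjusted edgeR p under 0.05. Over all tested genes, edgeR called 0.318%, and 7.94% had an unadjusted p under 0.05. At that called share, lists of the sizes in this paragraph would seldom hold a call, so 0 calls do not set them apart. Among other lists, edgeR called 0 of 34 interferon-stimulated, 0 of 23 MHC class I, 0 of 18 MHC class II and 0 of 44 respiratory chain genes, with 2, 1, 3 and 1 at an unadjusted p under 0.05 and 0 by DESeq2. Of 40 cell cycle genes edgeR called 0 (3 at an unadjusted p under 0.05) and DESeq2 called 1, Mki67 (-0.22, edgeR adjusted p = 0.0507). The 48 cytosolic ribosomal protein genes gave 0 calls by edgeR or DESeq2 (1 at an unadjusted edgeR p under 0.05). Differences were positive in 44 of them, with a median of 0.04, or 0.02 with the length and GC offset. Every valemetostat library lay above every tazemetostat library in 1 of the 48, beside 6.97% of all tested genes. Within groups, the list's mean log2 CPM had an SD of 0.05, as large as that median. Of 57 lists examined, 46 had no called member, 10 had a lower one and 1 a higher one.

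**Figure D5:**
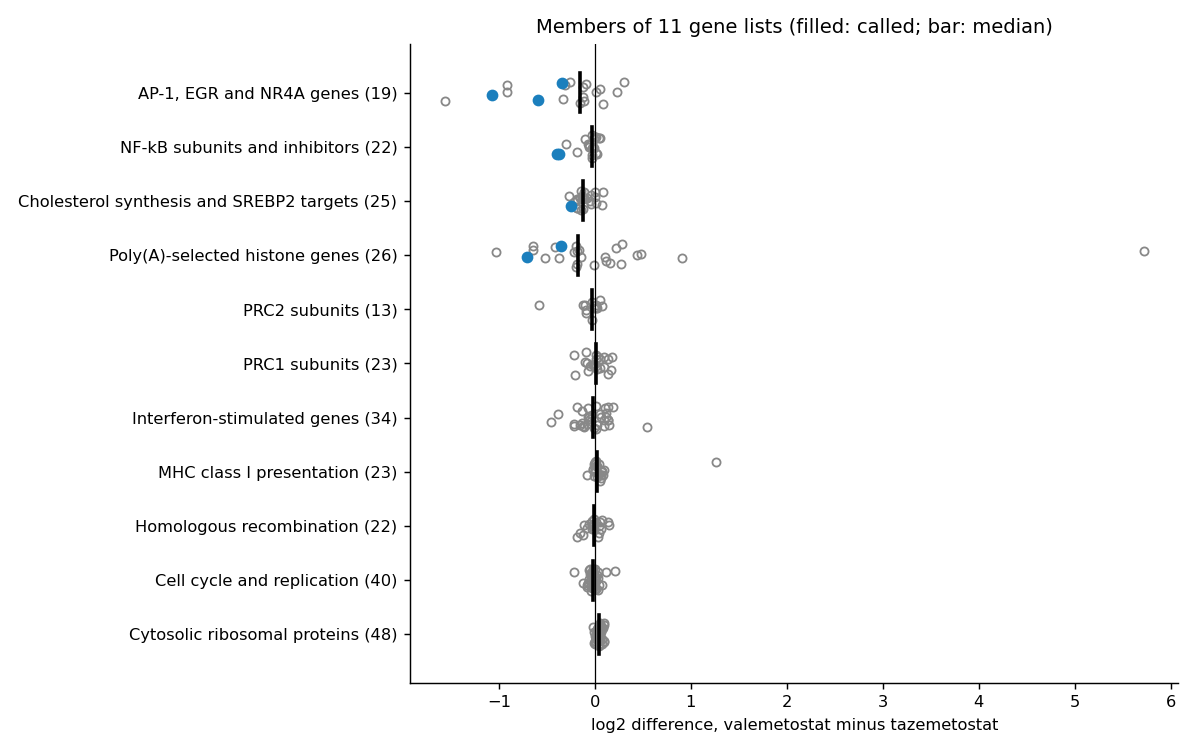
Log2 difference, valemetostat minus tazemetostat (horizontal axis), of each tested member of 11 gene lists (numbers of members in parentheses); filled points passed the test and bars are medians. The medians of the AP-1, cholesterol and histone lists lie at -0.16, -0.13 and -0.18, and those of the other 8 lists between -0.03 and 0.04.

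The number of calls rested on few libraries. It was 11 and 19 without tazemetostat library 1 or 2, 73 without tazemetostat library 3, 13 and 9 without valemetostat library 1 or 2, and 43 without valemetostat library 3. Gadd45b, Rel, Cldnd1, Bhlhe40 and Zc3h11a (ENSMUSG00000116275) were called in all 6 of these fits. Longer transcripts also differed, with a Spearman rho of -0.21 between transcript length and the inhibitor difference across 8948 genes, which are not independent replicates. Medians ran from 0.02 in the shortest of 5 equal length classes to -0.03 in the longest. Each library's deviation from the mean of the 6 inhibitor libraries, which includes the difference between the compounds, was also set against length. The correlations were 0.33, 0.34 and -0.34 in tazemetostat libraries 1, 2 and 3 and 0.03, -0.35 and 0.01 in those of valemetostat. With a length and GC offset, rho was -0.01 and 80 genes were called, 39 of them among the 40; the exception was Gm28661. The medians of the AP-1 and cholesterol lists were then -0.18 and -0.12.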

How the data were processed

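Poly(A) RNA from 9 libraries (3 each of DMSO, tazemetostat and valemetostat) was read in pairs, per the labels' protocols. The authors deposited whole-number counts per gene and a table of log2 values; 2 to those values minus 1 gave TPM summing to 987814 to 989925 per library. The submitters' processing notes name the build mm9. Aligner, counter, strand setting and annotation were not given in the sources used here. Reads from near-identical, overlapping or antisense genes could not be told apart.

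Counts were fitted with edgeR 4.0.16 (R 4.3.3; TMM scaling, expression filter with a minimum count of 10, robust quasi-likelihood F test, Benjamini-Hochberg adjustment) on all 9 libraries with 3 groups. SE is the log2 difference over the square root of F. Depth was 34080504 to 46675110 counts per library; a floor of 3 counts covers counting error only, because PCR copies of a molecule cannot be recognised. No replicate pair agreed within counting noise. Named genes were up to 12 called per direction by size, up to 8 by p, up to 4 called per list, and a set of chromatin, switching and derepressed genes; others named as contrasts within a list (such as Junb, Nfkb1, Ahrr, Hsd17b7, Abca1) or to complete the called genes were chosen after their values were seen. Same-numbered tazemetostat and valemetostat libraries did not deviate together (r of -0.03, -0.12 and -0.18), so numbers were not treated as pairs. Some differently numbered libraries did: r was 0.28 for tazemetostat 3 with valemetostat 2, 0.23 for tazemetostat 1 with valemetostat 3 and 0.13 for tazemetostat 2 with valemetostat 1. The remaining pairs ran from -0.22 to -0.01, and the cause was not tested. Alternatives used DESeq2 1.42.0, limma 3.58.1 on the log2 values, other scaling, filters, a length and GC offset (longest GENCODE transcript) and left-out libraries; summing identifiers of 1 symbol was added after seeing the data. The fit was tested on simulated data. The comparison and the gene lists were chosen with earlier results of these data known. 1 of the lists, nuclear-retained RNAs, had no tested member. Some items are not reported here.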

Additional observations from a re-analysis of the deposited data

How the results depend on the processing

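All 40 called genes kept their sign under every setting run on them except Zc3h11a (ENSMUSG00000102976), at -0.18 when identifiers of 1 symbol were summed. Calls numbered 93 (21 higher, 72 lower; 12 at 2-fold) with no count filter, 80 (19 higher, 61 lower) with the length and GC offset, 75 (15 higher, 60 lower) with DESeq2 and 1 (0 higher, 1 lower; 0 at 2-fold) with limma on log2(TPM + 1), where 743 genes had an unadjusted p under 0.05; that gene was Zc3h11a (ENSMUSG00000116275). With library totals 27 were called, 20 of them lower. The calls at 2-fold were 2 with at least 1 CPM in 3 libraries. Leaving out 1 library gave 9 to 73 calls, 2 to 12 higher, 7 to 61 lower and 0 to 4 at 2-fold. The replicate block gave 32 calls, 30 of them among the 40, and with the offset 43, 2 of them at 2-fold; the numbers are shared labels only. Median-ratio size factors, the 1 CPM filter and the 6 inhibitor libraries alone gave 41, 39 and 49 calls. Bach2 was called with DESeq2 (adjusted p = 0.0489) and with no count filter (edgeR, 0.0442). Of 1380 alternative values of 69 named genes, 211 lost a call, 2 gained one and 1 reversed. Only the 40 called genes among the 69 could lose a call, so the 211 are not to be read as a share of all 1380. The cause of these changes was not tested, beyond the change in genes or libraries that each setting makes by construction. At 3 libraries per group, genes at 0.1 to 1 CPM in DMSO had a median SE of 0.54 log2 units, so smaller differences there were not detectable.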
